A study of Mus musculus with 5 samples.

Results

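The 40 genes described here act in meiosis, in the piRNA pathway or in other steps of germ-cell development, and they were followed in cultured mouse embryonic stem cells (ESCs) and in ESC-like cells recovered from teratomas. They were taken by gene symbol, with older synonyms accepted, and each was read from its brightest probe set whose array annotation names that gene alone. All 40 were measured, out of 19938 genes with a probe set of their own on the Affymetrix Mouse Gene 1.0 ST arrays. Values are log2 RMA intensities, on which a difference of 1 is 2-fold.

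The co-injection ESC-like cells (2 arrays, batches 1 and 2) came from teratomas formed when B6CBAF1 ESCs were injected under the skin of B6D2F1 mice together with B6D2F1 embryonic fibroblasts. The heterologous ESC-like cells (1 array) came from the same ESCs injected alone into B6D2F1 mice, where the study describes a lone teratoma, so this array stands for 1 line. The homologous ESC-like cells (1 array) came from the ESCs injected alone into B6CBAF1 mice, and the parental ESCs (1 array) were never injected. All of the cultures share the B6CBAF1 ESC origin and were kept on inactivated ICR fibroblast feeders, and the study's methods give the teratoma-derived cells more LIF than the parental ESCs, so that passage through a teratoma and culture history cannot be told apart. With 1 array in every group but one, genes are called here by size alone, when they differed by more than 2-fold. The measure of error is the spread of the co-injection pair, which the study treats as separate cell lines. The labels do not say whether the 2 batches came from separate teratomas or are cultures of 1. A model fit with 1 residual degree of freedom is given as an alternative in the closing section.

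Germ cells use a set of genes that most other cells keep silent. The piRNA pathway loads small RNAs on PIWI proteins and directs them, with the help of Tudor-domain proteins, against transposon transcripts. In meiosis, HORMA-domain proteins and meiotic cohesins organise the chromosome axis, the synaptonemal complex joins the paired chromosomes, and recombination proteins make and repair DNA breaks. Mouse ESCs in culture carry transcripts of many such genes without entering meiosis. Their promoters are often rich in CpG, and in somatic and stem cells they are known to be held down by DNA methylation and by PRC1.6, a Polycomb complex in which E2F6 and the MGA and MAX pair bind DNA.

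Genes from 5 of the 6 roles were more than 2-fold lower in every culture that had passed through a teratoma. None of the 5 genes listed under recombination was, but Rec114, a break-formation gene outside the 40, was. In all 4 ESC-like arrays 13 of the 40 genes (32.5%) were more than 2-fold lower than in parental ESCs, against 0.868% of all named genes, and none was more than 2-fold higher in all 4, against 0.341%. The 40 genes were chosen with earlier results of these data known, so contrasts with all named genes, here and below, are no independent support. Of related genes outside the 40, 2 of 16 piRNA genes and 1 of 23 meiosis genes were lower in every ESC-like array. The 13 were Mael, Piwil2, Tex19.1, Sycp1, Syce1, Tex11, Hormad1, Hormad2, Stag3, Smc1b, Dazl, Sohlh2 and Slc25a31. Their differences had a median of -1.88 in co-injection batch 1, -1.87 in batch 2, -2.03 in the heterologous array and -2.08 in the homologous array. For each of the 13, the gap between the parental value and the nearest ESC-like value was 1.10 to 2.08. The range of the 4 ESC-like arrays was narrower for each, at 0.20 to 1.08. The rule that picked these genes already requires a gap above 1, so the gap is no separate support. The co-injection pair differed by a median of 0.051 and at most 0.31 over the 40 genes, with a pooled SD of 0.077 (n = 2 arrays). This SD includes 5 genes with identical values in both arrays, and it does not measure the spread between lines of other conditions.

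**Figure D1:**
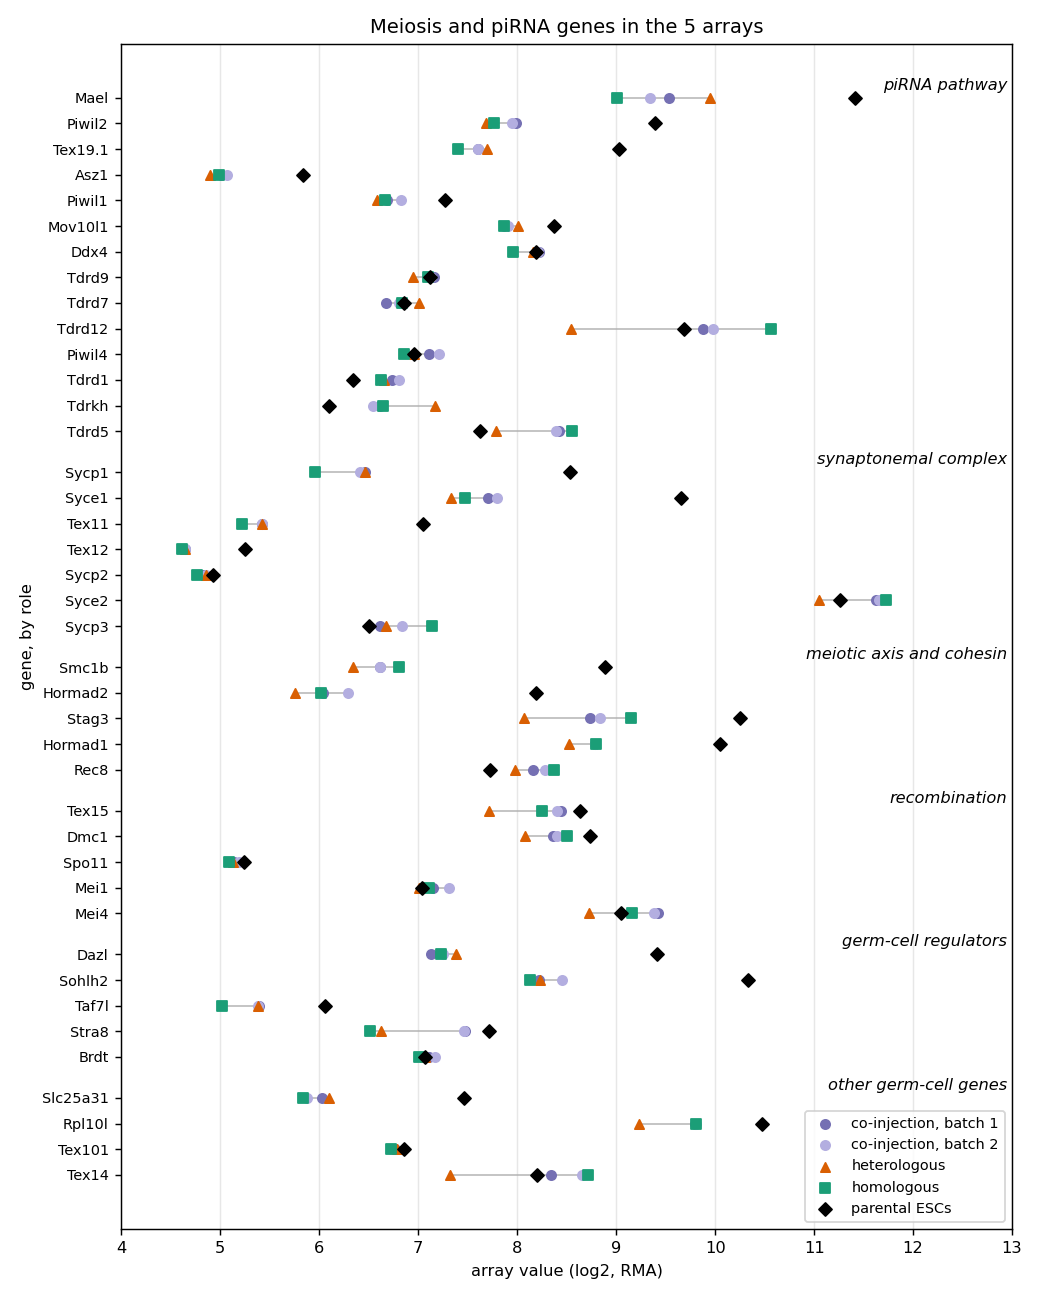
Log2 RMA value of each gene (rows, grouped by role and sorted by the mean ESC-like minus parental difference) in the 2 co-injection arrays, the heterologous and the homologous array and the parental ESC array; the grey line spans the 4 ESC-like arrays. For 13 genes the black parental diamond lies more than 1 unit to the right of all 4 ESC-like points, with Mael at 11.41 the farthest right of them.

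By condition, the co-injection mean was more than 2-fold below the parental array for 13 of the 40 genes and above it for 0, where 1.44% of all named genes were lower and 0.647% higher. In the heterologous array 16 were lower and 1 was higher (1.95% and 3.98% of all named genes). In the homologous array 15 were lower and 0 higher (1.6% and 1.45%). The median difference over the 40 genes was -0.30 for the co-injection mean (SD 0.007 between the medians of its 2 arrays), -0.68 for the heterologous and -0.45 for the homologous array, where the medians over all named genes were 0.04, -0.04 and -0.01. The parental array was above all 4 ESC-like arrays for 25 genes (62.5%, against 23.6% of all named genes) and below all 4 for 5 genes (12.5%, against 21.9%). These comparisons share the same parental array, so they are not independent of each other.

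Promoter windows are shown because the motifs of E2F6 and of MGA with MAX lie in many promoters that PRC1.6 binds. RefSeq promoters (GRCm38.p6, 250 bases before to 50 after the annotated start) were found for 36 of the 40 genes, 11 of them among the 13 that were lower in every ESC-like array. Piwil2, Tex11, Spo11 and Tex15 had no entry. Searched on both strands were the E2F core GCGGGA and the E-box CACGTG, which reads the same on both strands. The 2 motifs overlapped in 0 of the 44 windows of these genes. The E2F core was in the windows of 7 of those 11 genes (63.6%) and of 9 of the other 25 (36%), against 30.5% of 15614 genes named on the array and 20% of all 32851 windows. CACGTG was in 5 of the 11 (45.5%) and 10 of the other 25 (40%), against 9.5% of the named genes and 7.15% of all windows. Among named genes with at least 15 CpG in the window the shares were 48% for the E2F core and 13% for the E-box. With the same minimum, 10 of the genes lower in every ESC-like array and 18 of the others remained. The E2F core was in 70% of these 10 and 44.4% of these 18, and the E-box in 50% of each. The windows of the 11 genes held a median of 22 CpG and those of the other 25 a median of 18, against 16 for the named genes.

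The stretch from position -160 to position 30, counted from the start, is given for 8 genes, 5′ to 3′ on the gene's strand. Capitals mark the E2F core, shown as its reverse complement where it lies on the other strand, and the E-box. The first 5 were lower in every ESC-like array and held a match, with both the E2F core and the E-box in Hormad1 (chr3:95559517-95559706, plus strand), Sycp1 (chr3:102936071-102936260, minus strand) and Slc25a31 (chr3:40708711-40708900, plus strand), and the E2F core alone in Smc1b (chr15:85131928-85132117, minus strand) and Tex19.1 (chr11:121145983-121146172, plus strand). Taf7l (chrX:134476461-134476650, minus strand) was past 2-fold in the homologous array alone, Dazl (chr17:50293591-50293780, minus strand) was lower everywhere with neither motif, and Sycp3 (chr10:88459427-88459616, plus strand) held both motifs and was not lower in any array.
Hormad1: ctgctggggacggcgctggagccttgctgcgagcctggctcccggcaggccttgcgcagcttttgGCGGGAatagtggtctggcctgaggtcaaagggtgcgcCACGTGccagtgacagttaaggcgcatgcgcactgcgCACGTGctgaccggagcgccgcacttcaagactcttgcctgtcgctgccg
Sycp1: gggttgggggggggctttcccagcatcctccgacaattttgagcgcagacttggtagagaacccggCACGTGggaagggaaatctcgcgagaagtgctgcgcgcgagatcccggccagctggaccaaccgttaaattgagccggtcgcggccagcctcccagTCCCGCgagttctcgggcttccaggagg
Slc25a31: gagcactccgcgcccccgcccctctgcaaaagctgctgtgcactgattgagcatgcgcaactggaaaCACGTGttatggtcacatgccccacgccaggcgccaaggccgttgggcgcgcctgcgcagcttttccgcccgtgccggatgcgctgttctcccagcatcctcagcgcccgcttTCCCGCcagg
Smc1b: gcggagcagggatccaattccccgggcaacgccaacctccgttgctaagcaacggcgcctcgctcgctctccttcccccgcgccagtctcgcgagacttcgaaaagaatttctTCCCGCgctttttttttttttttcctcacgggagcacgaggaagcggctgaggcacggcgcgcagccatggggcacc
Tex19.1: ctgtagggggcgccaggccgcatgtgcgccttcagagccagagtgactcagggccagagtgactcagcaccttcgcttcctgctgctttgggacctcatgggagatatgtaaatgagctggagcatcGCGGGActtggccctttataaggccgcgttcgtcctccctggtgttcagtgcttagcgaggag
Taf7l: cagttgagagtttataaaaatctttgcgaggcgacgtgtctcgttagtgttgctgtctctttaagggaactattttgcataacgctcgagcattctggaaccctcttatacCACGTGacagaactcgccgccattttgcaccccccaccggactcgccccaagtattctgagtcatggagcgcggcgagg
Dazl: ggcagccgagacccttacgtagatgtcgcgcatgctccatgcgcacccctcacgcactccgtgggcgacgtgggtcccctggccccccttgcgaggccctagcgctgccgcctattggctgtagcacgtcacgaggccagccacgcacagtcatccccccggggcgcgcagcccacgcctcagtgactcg
Sycp3: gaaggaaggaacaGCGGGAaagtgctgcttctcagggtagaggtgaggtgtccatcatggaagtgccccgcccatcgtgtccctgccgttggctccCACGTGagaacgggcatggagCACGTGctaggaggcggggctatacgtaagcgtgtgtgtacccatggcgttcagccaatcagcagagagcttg

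Genes with a match and genes without one were both found among the lower ones. Dazl, with no match, differed by -2.16 on average, and Smc1b, with the E2F core alone, by -2.29. Sycp3, with 2 E-boxes and the E2F core, differed by 0.31. A match is a string of letters and no measure of binding.

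**Figure D2:**
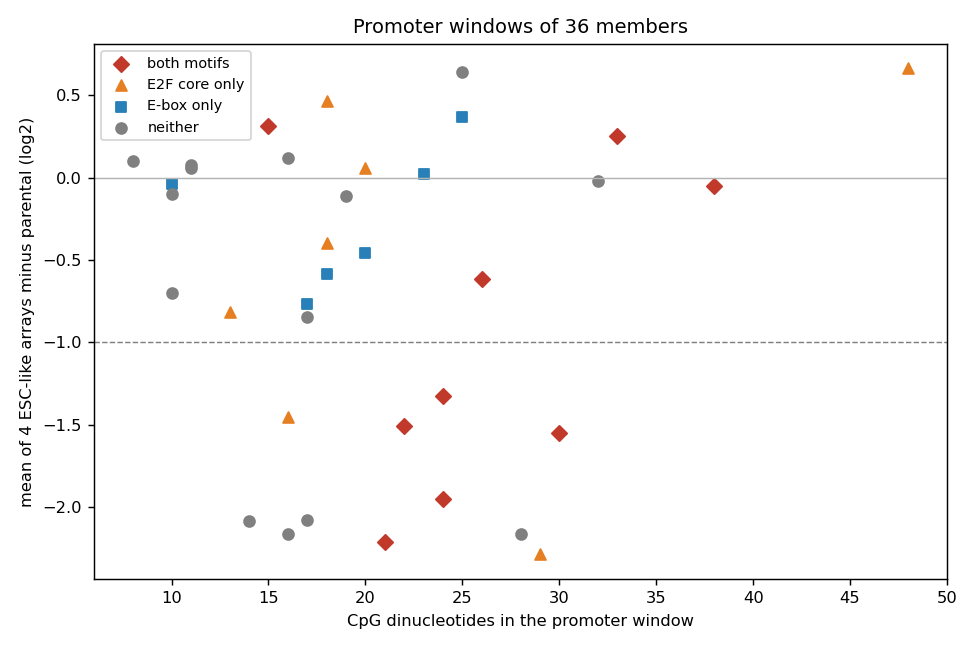
Number of CpG dinucleotides in the 300-base promoter window (horizontal; the highest value where a gene has several windows) against the mean of the 4 ESC-like arrays minus the parental array (vertical, log2) for 36 genes, marked by the motifs present in any window. Genes with a difference below -1 carry both motifs, 1 motif or neither, and their windows hold 14 to 30 CpG.

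Among the 14 piRNA pathway genes, 3 were lower in all 4 ESC-like arrays, and a Tudor gene was lower in the heterologous array alone. Mael, a nuage component needed for transposon silencing in the male germ line, had values of 9.53 and 9.34 in the co-injection arrays, 9.95 in the heterologous array and 9.01 in the homologous array, against 11.41 in parental ESCs. It was 3.93-fold lower in the co-injection mean, 2.76-fold lower in the heterologous and 5.29-fold lower in the homologous array. Within the ESC-like cells the heterologous value was the nearest to the parental one, 0.94 above the homologous value, which is just under 2-fold. Piwil2, the PIWI protein that takes part in the ping-pong cycle of piRNA production, read 7.99 and 7.95 in the co-injection arrays, 7.68 in the heterologous and 7.77 in the homologous array, against 9.39 in parental ESCs. All 4 ESC-like values lay close together, and over the 3 conditions the gene was 2.69-fold to 3.28-fold lower. Tex19.1, which limits retrotransposon expression in germ cells and placenta, read 7.60 in both co-injection arrays, 7.69 in the heterologous and 7.40 in the homologous array, against 9.03 in parental ESCs. It was 2.68-fold lower in the co-injection mean, 2.52-fold lower in the heterologous and 3.09-fold lower in the homologous array.

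The Tudor-domain genes did not move with these 3. Tdrd12, needed for the piRNAs that MIWI2 carries, read 9.88 and 9.98 in the co-injection arrays, 8.55 in the heterologous and 10.57 in the homologous array, against 9.68 in parental ESCs. The heterologous value was 2.2-fold below the parental array, and the co-injection and homologous values were above it by 0.25 ± 0.07 (SD, n = 2 arrays) and 0.88. Tdrkh, a mitochondrial Tudor protein that helps trim piRNA ends, was the gene that was called higher, with 6.62 and 6.55 in the co-injection arrays, 7.17 in the heterologous and 6.64 in the homologous array, against 6.10 in parental ESCs. Its heterologous value was 2.1-fold above the parental one, while the co-injection and homologous values were 1.4-fold and 1.45-fold above. Tdrd5, which acts in chromatoid body assembly, came close to 2-fold in the homologous array at 0.93 and reached 0.78 in the co-injection mean and 0.16 in the heterologous array. Tdrd1, a partner of PIWI proteins, was 0.28 to 0.43 above the parental array, and Tdrd7 and Tdrd9 stayed within 0.18 of it.

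The remaining piRNA genes were within 2-fold. Asz1, a mitochondrial scaffold protein, was nearest to the limit, with differences of -0.80 in the co-injection mean, -0.94 in the heterologous and -0.85 in the homologous array. Its values, 4.90 to 5.07 in ESC-like cells against 5.84 in parental ESCs, were below the lower quartile of all values on the arrays, 6.07. Piwil1, the PIWI protein of late spermatogenesis, differed by -0.52 to -0.69, and Mov10l1, the helicase that starts piRNA processing, by -0.36 to -0.51. Ddx4, the germ-cell helicase also known as VASA, read 8.22 and 8.21 in the co-injection arrays, 8.16 in the heterologous and 7.96 in the homologous array, against 8.19 in parental ESCs. Piwil4, which encodes MIWI2, was within 0.20 of its parental value in each condition.

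Of the 7 synaptonemal complex genes, Sycp1, Syce1 and Tex11 were lower in every ESC-like array and the other 4 in none. Sycp1, which spans the central region of the complex, read 6.46 and 6.41 in the co-injection arrays, 6.46 in the heterologous and 5.96 in the homologous array, against 8.54 in parental ESCs. Its homologous difference of -2.58, 5.97-fold lower, was the widest of any of the 40 genes. Syce1, a central element protein, read 7.70 and 7.79 in the co-injection arrays, 7.33 in the heterologous and 7.47 in the homologous array, against 9.66 in parental ESCs. It was 3.76-fold to 5.01-fold lower over the 3 conditions. Tex11, an X-linked gene whose protein links synapsis to recombination, read 5.42 in both co-injection arrays and in the heterologous array and 5.22 in the homologous array, against 7.04 in parental ESCs.

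The lower value of Tex11 lies on a chromosome that was lower as a whole. Over 359 X-linked genes above the median of all values (7.49), the median difference from parental ESCs was -0.50 in the co-injection mean, -0.47 in the heterologous and -0.44 in the homologous array, against 0.009, -0.027 and 0.00 over 11241 other named genes. Tex11 differed by -1.62, -1.62 and -1.83, and its own part in or beyond the chromosome's shift was not tested. Leaving out both X-linked members left 12 of 38 genes lower in every ESC-like array.

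Syce2, another central element protein, had the highest mean of the 40 genes and was not called, with 11.62 and 11.66 in the co-injection arrays, 11.05 in the heterologous and 11.73 in the homologous array, against 11.26 in parental ESCs. Over 653 chromosome 8 genes, where Syce2 lies, the median difference was 0.23 in the co-injection mean, 0.04 in the heterologous and 0.26 in the homologous array, next to 0.38, -0.22 and 0.46 for Syce2. Sycp3, of the lateral element, read 6.62 and 6.83 in the co-injection arrays, 6.67 in the heterologous and 7.14 in the homologous array, against 6.50 in parental ESCs, so that it was lowest in parental ESCs. Tex12 and Sycp2 had the lowest means of all 40. Tex12, of the central element, read 4.64 in both co-injection arrays and the heterologous array and 4.61 in the homologous array, against 5.25 in parental ESCs, and differed by -0.61, -0.61 and -0.64. Sycp2, of the lateral element, read 4.83 and 4.86 in the co-injection arrays, 4.86 in the heterologous and 4.77 in the homologous array, against 4.92 in parental ESCs. Both lie far below the median of all values, where the arrays resolve little.

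Of the 5 axis and cohesin genes, 4 were lower in every ESC-like array, the highest share of any role. Hormad1, a HORMA-domain protein of unsynapsed axes, read 8.78 in both co-injection arrays, 8.52 in the heterologous and 8.79 in the homologous array, against 10.05 in parental ESCs. It is the one gene of the 40 with a second probe set, which was dimmer and showed 4.96 and 5.25 in the co-injection arrays, 5.12 in the heterologous and 5.63 in the homologous array, against 7.66 in parental ESCs. Both probe sets were lower in all 4 ESC-like arrays. Hormad2, its paralogue, read 6.04 and 6.29 in the co-injection arrays, 5.75 in the heterologous and 6.02 in the homologous array, against 8.19 in parental ESCs, 4.07-fold to 5.42-fold lower over the 3 conditions.

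Of the meiosis-specific cohesin subunits among the 40 genes, Smc1b and Stag3 were lower and Rec8 was not. Rad21l, a further subunit outside the 40, differed by 0.04 in each condition, at low values. Smc1b read 6.62 in both co-injection arrays, 6.34 in the heterologous and 6.80 in the homologous array, against 8.88 in parental ESCs. Its difference was -2.27 in the co-injection mean, -2.55 in the heterologous and -2.08 in the homologous array, the last 4.22-fold lower. Stag3 read 8.74 and 8.84 in the co-injection arrays, 8.07 in the heterologous and 9.15 in the homologous array, against 10.25 in parental ESCs. Its ESC-like values were the most spread of the 13 genes, and its homologous difference of -1.10 was nearly at the limit. Rec8, the meiotic kleisin, read 8.15 and 8.28 in the co-injection arrays, 7.98 in the heterologous and 8.37 in the homologous array, against 7.73 in parental ESCs, and so was lowest in parental ESCs.

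**Figure D3:**
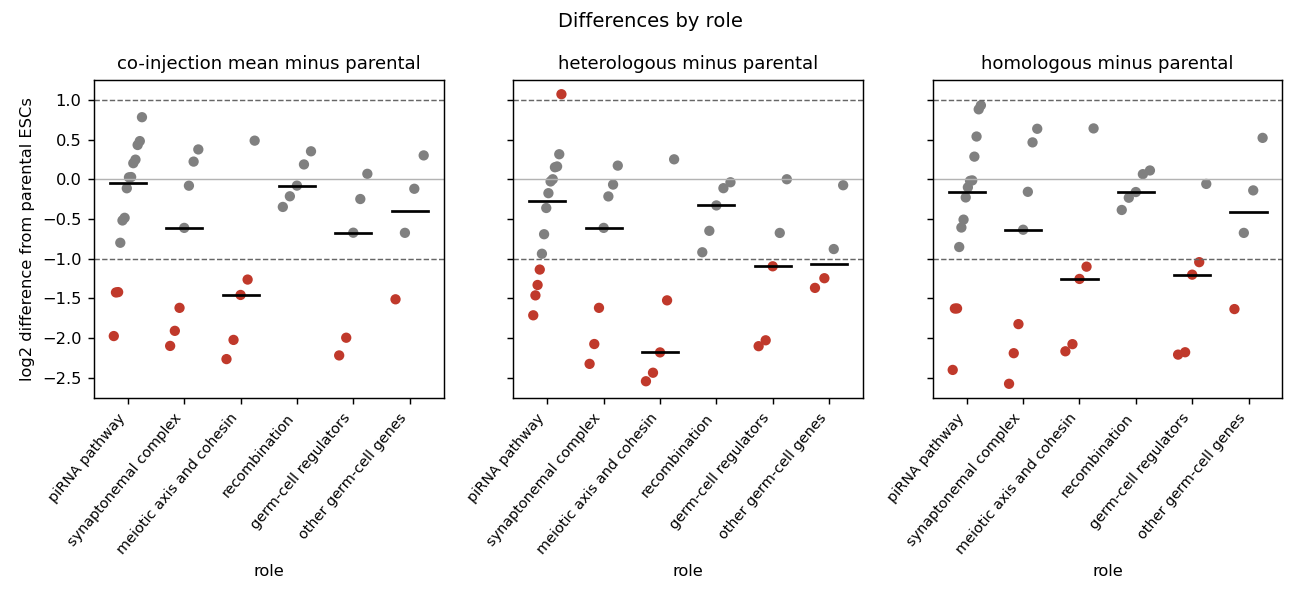
Log2 difference from the parental array (vertical) for each gene by role (horizontal) in the co-injection mean, the heterologous array and the homologous array; points past 2-fold (dashed lines) are red and bars are medians of a role. In each panel 4 of 5 axis and cohesin genes and 0 of 5 recombination genes are past the lower line.

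None of the 5 recombination genes was past 2-fold in any comparison. Spo11, which makes the meiotic breaks, read 5.14 and 5.19 in the co-injection arrays, 5.13 in the heterologous and 5.08 in the homologous array, against 5.24 in parental ESCs, among the lowest values of the 40 genes. Dmc1, the meiotic recombinase, read 8.37 and 8.40 in the co-injection arrays, 8.08 in the heterologous and 8.50 in the homologous array, against 8.73 in parental ESCs. Mei4, needed for break formation, differed by 0.35, -0.33 and 0.11 in the co-injection mean, the heterologous and the homologous array, and Mei1, also needed for breaks, by 0.19, -0.04 and 0.06. Tex15, which acts in both break repair and piRNA-guided silencing, read 8.44 and 8.40 in the co-injection arrays, 7.71 in the heterologous and 8.25 in the homologous array, against 8.63 in parental ESCs. Its heterologous difference of -0.92 fell just short of 2-fold.

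Of the 5 regulators, 2 were lower in every ESC-like array and 2 in part of them. Dazl, an RNA-binding protein that licenses germ cells for development, read 7.13 and 7.25 in the co-injection arrays, 7.38 in the heterologous and 7.23 in the homologous array, against 9.41 in parental ESCs. The 4 ESC-like values were close together, and over the 3 conditions the gene was 4.08-fold to 4.66-fold lower. Sohlh2, a transcription factor of early spermatogonia and oocytes, read 8.22 and 8.45 in the co-injection arrays, 8.23 in the heterologous and 8.12 in the homologous array, against 10.33 in parental ESCs, 3.99-fold to 4.63-fold lower over the 3 conditions.

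Stra8, which retinoic acid induces at the start of meiosis, split the ESC-like arrays. It read 7.47 and 7.46 in the co-injection arrays, 6.62 in the heterologous and 6.51 in the homologous array, against 7.72 in parental ESCs. The heterologous and homologous values were 2.14-fold and 2.3-fold below the parental one, and the co-injection mean was 1.19-fold below it. Set against each other, the co-injection mean was 0.85 above the heterologous and 0.95 above the homologous array, both within 2-fold, so the split is not a call. Taf7l, an X-linked homologue of a general transcription factor, read 5.39 and 5.38 in the co-injection arrays, 5.38 in the heterologous and 5.01 in the homologous array, against 6.06 in parental ESCs. It was past 2-fold in the homologous array by a narrow margin, at -1.04, with low values on a chromosome whose median was -0.44 there. Brdt, a testis bromodomain protein, was within 0.07 of its parental value in every condition.

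Of the other 4 germ-cell genes, Slc25a31 was lower throughout. Slc25a31, the ADP/ATP carrier of the male germ line, read 6.03 and 5.88 in the co-injection arrays, 6.10 in the heterologous and 5.83 in the homologous array, against 7.47 in parental ESCs. Rpl10l, a ribosomal protein gene expressed in testis, read 9.80 in both co-injection arrays, 9.23 in the heterologous and 9.80 in the homologous array, against 10.48 in parental ESCs. Its heterologous difference of -1.25 was past 2-fold, but Rpl10l is a near copy of the X-linked Rpl10 and its probes may read both, so the value is uncertain. Rpl10 itself read 13.46 and 13.45 in the co-injection arrays, 13.46 in the heterologous and 13.49 in the homologous array, against 13.53 in parental ESCs. Tex101, a germ-cell surface protein, differed by 0.14 at most.

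Among the ESC-like cells, the heterologous line stood apart for Tdrd12, Tex14 and Stag3. Between the heterologous and the homologous array these 3 genes were more than 2-fold lower and 0 were higher, against 0.647% and 2.41% of all named genes. Tdrd12 differed by -2.02, Tex14 by -1.40 and Stag3 by -1.08. Tex14, needed for the bridges that join dividing germ cells, read 8.34 and 8.66 in the co-injection arrays, 7.32 in the heterologous and 8.72 in the homologous array, against 8.20 in parental ESCs. Between the co-injection mean and the heterologous array 2 genes were higher and 0 lower, against 0.361% and 2.99% of all named genes, namely Tdrd12 at 1.38 and Tex14 at 1.18. Between the co-injection mean and the homologous array 0 of the 40 were higher and 0 lower, against 0.0752% and 0.351%.

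**Figure D4:**
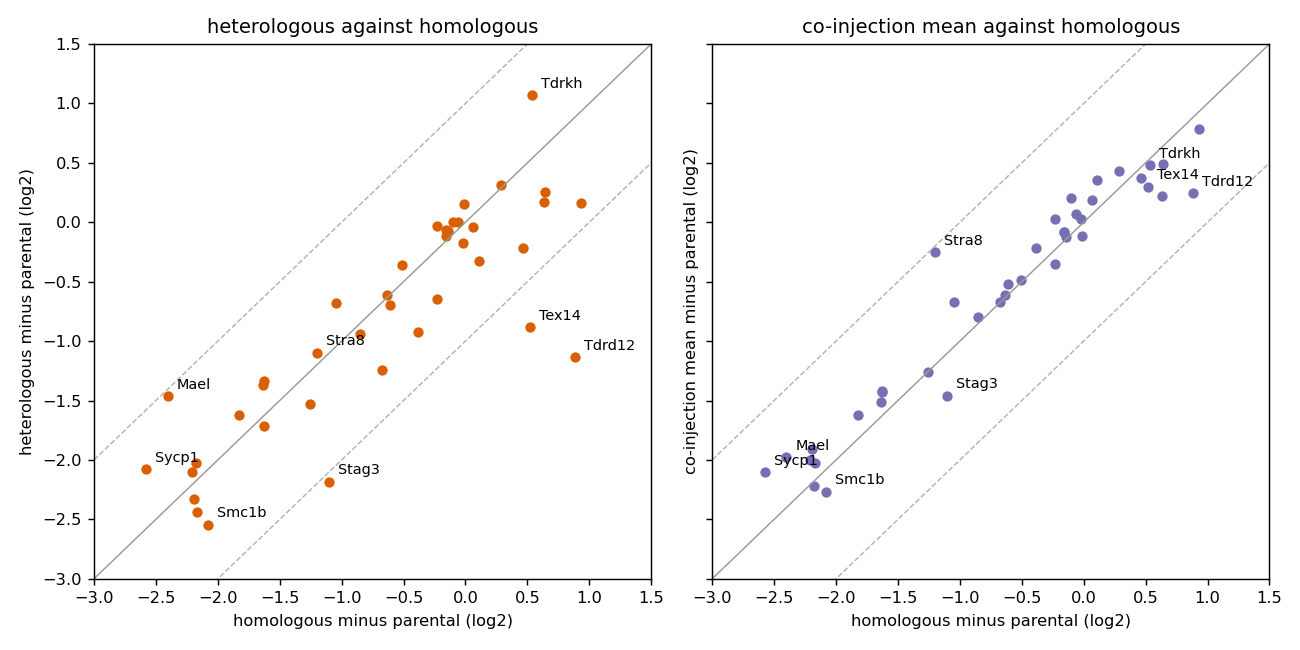
Difference from the parental array in the heterologous array (left panel, vertical) and in the co-injection mean (right panel, vertical) against the homologous array (horizontal), log2, 1 point per gene; the solid line marks equal differences and the dashed lines 2-fold, and both axes subtract the same parental array. Tdrd12, Tex14 and Stag3 lie below the lower dashed line in the left panel, and no gene lies outside the dashed lines in the right panel.

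Markers of other cells moved with the heterologous array. Of 12 fibroblast markers, 7 were more than 2-fold higher there than in parental ESCs, 0 in the co-injection mean and 0 in the homologous array. Over all named genes these shares were 3.98%, 0.647% and 1.45%. In the co-injection mean 1 marker was more than 2-fold lower, against 1.44% of all named genes. No marker was listed at 0. Their summed linear intensity was 14079 and 14382 in the co-injection arrays, 29469 in the heterologous and 18539 in the homologous array, against 14886 in parental ESCs. The part of these cells in the heterologous values was not tested. In such bulk cultures, fewer cells that carry a transcript and less of it per cell cannot be told apart. Sertoli and Leydig markers (7 measured) were within 2-fold in each condition.

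ESC identity genes were also somewhat lower. Pou5f1 read 12.40 and 12.36 in the co-injection arrays, 12.32 in the heterologous and 12.29 in the homologous array, against 12.60 in parental ESCs. Of 10 ESC markers, 0 were more than 2-fold lower in the co-injection mean, 4 in the heterologous and 1 in the homologous array, against 1.44%, 1.95% and 1.6% of all named genes. The 4 were Zfp42 at -1.63, Klf4 at -1.43, Esrrb at -1.18 and Fgf4 at -1.11, and in the homologous array it was Klf4 at -1.08. The median difference over these markers was -0.40, -0.66 and -0.46, near the medians over the 40 genes, and their part in the values of the 13 genes was not tested.

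A few other genes of the same pathways were also lower, and most were not. Of 16 other piRNA genes measured, 2 were lower in the co-injection mean, 3 in the heterologous and 2 in the homologous array, and 0 were higher. Over all named genes the lower shares were 1.44%, 1.95% and 1.6% in these conditions. Gpat2, an acyltransferase needed for piRNA production, differed by -1.38, -1.56 and -1.45 in these, and Rnf17, a Tudor-domain protein of male germ cells, by -1.16, -1.18 and -1.20. Mov10, an RNA helicase, was also lower in the heterologous array at -1.23. Of 23 other meiosis genes measured, Rec114, which acts with Mei4 in break formation, was lower in all 3 conditions, by -1.80, -2.17 and -1.84. Meioc, which keeps cells in the meiotic programme, was higher in the heterologous array at 1.01. The 10 spermatid genes, among them the protamines Prm1 and Prm2, were within 2-fold in every condition.

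**Figure D5:**
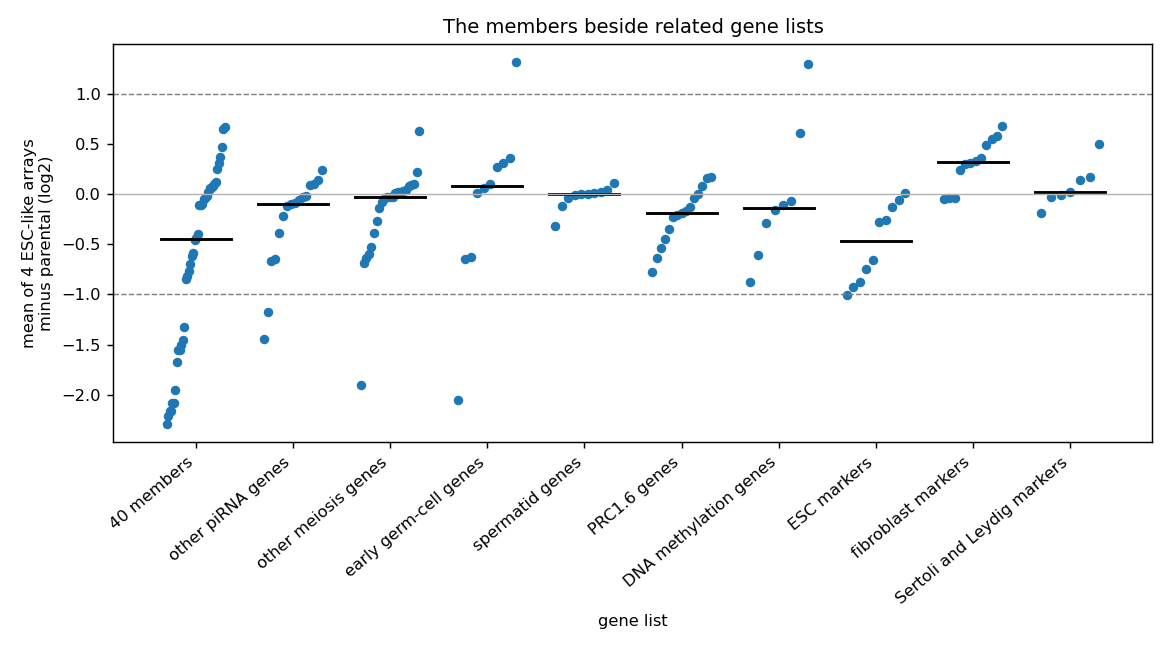
Mean of the 4 ESC-like arrays minus the parental array (vertical, log2) for each gene of the 40 and of 9 other lists (horizontal); black bars are medians and dashed lines mark 2-fold. The 40 genes reach from -2.29 (Smc1b) upwards with a cluster below -1, while of the other piRNA and meiosis genes Gpat2, Rnf17 and Rec114 lie below it.

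Genes of PRC1.6 and genes that write or remove DNA methylation were within 2-fold with few exceptions. All 15 PRC1.6 genes were within 2-fold in each condition. The lowest differences were those of the X-linked demethylase gene Kdm5c, at -0.75 in the co-injection mean, -0.87 in the heterologous and -0.76 in the homologous array, of L3mbtl2 at -0.56, -0.80 and -0.62, and of Wdr5 at -0.46, -0.73 and -0.49. Of the DNA-binding subunits, named here for that role after their values were seen, E2f6 differed by -0.34 in the co-injection mean, 0.35 in the heterologous and -0.37 in the homologous array, and Mga by -0.15, -0.50 and -0.03. E2f6 lies on chromosome 12. Over 421 genes there above the median of all values, the median difference was 0.03, 0.24 and 0.01 in these conditions. The part of this shift in the E2f6 values was not tested. Of 8 DNA methylation genes, the de novo methyltransferase Dnmt3a, also on chromosome 12, was higher in all 3 conditions. It read 10.68 and 10.49 in the co-injection arrays, 10.69 in the heterologous and 10.36 in the homologous array, against 9.26 in parental ESCs. Dnmt3b, the other de novo enzyme, differed by 0.65, 0.38 and 0.76, within 2-fold. Tet2, which oxidises methylated cytosine, was lower in the heterologous array at -1.05.

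In all, 19 of the 40 genes were past 2-fold in at least 1 of the 6 comparisons and 21 in none. The 6 comparisons reuse the same 5 arrays. No share of all named genes past 2-fold in any of them is given, so these counts describe the 40 genes only. The 21 ranged over 0.14 to 0.94 across the 5 arrays, with a median range of 0.51. Identical values in several arrays occurred for 11 of the 40 genes and for 30.2% of all named genes, as median polish in RMA can return, and 5 of the 40 were the same in both co-injection arrays, so their SD of 0 is no measure of precision.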

How the data were processed

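RNA from 5 cultures was hybridised to 5 arrays. The authors processed the scans with GCOS and RMA, with quantile normalization, and deposited log2 values for 35556 probe sets (the sources used here give no versions). Probe sets with exactly 1 gene symbol in the platform annotation (21789) were used, those with several (1621) or none (12146) were left out, and the brightest per gene gave 19938 named genes. Differences were taken between arrays, with the co-injection pair averaged, and called past 2-fold (a log2 difference of 1), the fold rule of the study's methods; no p-value entered these calls. All 40 genes were accounted for: those past 2-fold in any comparison and the 3 highest and 3 lowest by mean were given array by array, and others by differences and ranges. For other lists at most the 3 largest differences either way, or every gene past 2-fold where 6 or fewer were, were named by rule. Pou5f1, E2f6, Mga, Dnmt3b and the protamines were added as well-known genes after their values were seen. The genes and lists were chosen with earlier results of these data known. Promoters and chromosomes came from RefSeq (GRCm38.p6). Alternatives were other folds, a filter on dim probe sets (mean below 7.49), cyclic loess, the mean of probe sets, autosomal genes only, leaving out arrays, and limma 3.58.1 (R 4.3.3) with Benjamini-Hochberg adjustment. The number of arrays limits the precision.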

Additional observations from a re-analysis of the deposited data

Results flagged for a closer look

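Tdrd12 and Tex14 moved in opposite directions from parental ESCs in different ESC-like cells. Tdrd12 was lower than parental in the heterologous array (-1.14) and higher in the homologous array (0.88), a difference of -2.02 between them. It was also higher than parental in both co-injection arrays, so that the co-injection mean exceeded the heterologous array by 1.38. Tex14 was lower than parental in the heterologous array (-0.88) and higher in the homologous array (0.52), a difference of -1.40 between them, and the co-injection mean exceeded the heterologous array by 1.18. Both were past 2-fold between these groups as well as opposite in direction from parental, and no test of each difference was made. Other genes, such as Syce2 and Mei4, also had opposite signs in the heterologous and homologous arrays, but differed within 2-fold between them.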

How the results depend on the processing

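With 1 array in all groups but co-injection, every difference lacks a replicate check on the parental, heterologous and homologous side. No paired analysis was possible because the groups share fewer than 2 replicate numbers. The 13 genes lower in every ESC-like array numbered 13 without the heterologous, the homologous or either co-injection array, where by construction the count could not fall. They numbered 13 under cyclic loess and with the mean of probe sets, 12 among autosomal genes, 17 at 1.5-fold, 7 at 3-fold and 8 without dim probe sets; these alternatives for that count were chosen after seeing the data. Without dim probe sets fewer genes were counted, leaving 8 past 2-fold in the co-injection mean, 10 in the heterologous and 8 in the homologous array against parental. At 3-fold, 8 were past in the co-injection mean and 9 in the heterologous array against parental, 1 between heterologous and homologous, and 0 between co-injection and heterologous. At 1.5-fold, 23 were past in the homologous array against parental, 6 between heterologous and homologous, 9 between co-injection and heterologous, and 2 between co-injection and homologous. Shares of all named genes are not given for these other folds and filters. The counts at those settings therefore describe the 40 genes only. limma, with 1 residual degree of freedom, called 0 genes at an adjusted p of 0.05 in every comparison, while 28 of the 40 had an unadjusted p under 0.05 in each comparison with parental, 18 between heterologous and homologous, 16 between co-injection and heterologous and 13 between co-injection and homologous. Over 21789 probe sets with 1 gene that share was 26% for the co-injection mean, 31% for the heterologous and 26.7% for the homologous array against parental, and 24.2%, 29.5% and 14.5% in the other comparisons. The median difference of the 40 genes without dim probe sets was -0.49 in the co-injection mean, -1.14 in the heterologous and -0.51 in the homologous array; among autosomal genes it was -0.23, -0.67 and -0.31; under cyclic loess it was -0.34 and -0.63 in the first 2. Leaving out a co-injection array gave -0.29 to -0.30 and counts of 13, 2 and 0. Of 57 named differences, 57 moved by less than the pooled co-injection SD of 0.077 under cyclic loess, which shifted array medians by -0.03 to 0.07. Some moved by more than the gene's own SD, as Stra8 did in the co-injection mean (-0.25 to -0.31, SD 0.01). Smc1b moved from -2.27 to -2.33 there, but its SD of 0 comes from identical values and is no yardstick. With the mean of probe sets 54 kept within the pooled SD, the exceptions being those of Hormad1 (-1.91, -2.03 and -1.64).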

Other observations

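Early germ-cell genes, which act before meiosis, did not follow the genes above as a list. Of 10 measured, Prdm14, a regulator of both naive ESCs and primordial germ cells, was lower in every condition, at 8.37 and 8.48 in the co-injection arrays, 7.71 in the heterologous and 8.17 in the homologous array, against 10.24 in parental ESCs. Dppa3, a maternal factor also found in primordial germ cells, was higher in 3 of the 4 ESC-like arrays, at 8.85 and 8.71 in the co-injection arrays, 6.82 in the heterologous and 8.97 in the homologous array, against 7.02 in parental ESCs. Prdm1 was higher in the homologous array (1.09) and Sox15 lower in the heterologous array (-1.48). Between the heterologous and the homologous array 4 of the 10 were lower, against 0.647% of all named genes. Between the co-injection mean and the heterologous array 4 were higher, against 0.361%.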
